A study of Caenorhabditis elegans with 357 samples.

Results

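Single wild-type Caenorhabditis elegans at 300 to under 400 min of the fourth larval stage (L4) were compared with single animals at 200 to under 300 min of the same stage. Animals were chosen by the strain in their labels and by the labelled minutes in L4, which gave 32 animals in the early window and 35 in the late window, 67 of the 193 N2 animals and of the 357 animals of the series. Both windows hold strain N2 with genotype WT, labelled as single individuals at L4. They share their rearing: eggs were obtained by bleaching, each animal was kept alone in an arena on NGM agar with UV-killed OP50 bacteria and imaged, and it was then cut with a needle, frozen and sequenced as 1 polyA RNA library. A second strain of the series, MT15434 with genotype tph-1(mg280) II, carries a mutation in the gene of tryptophan hydroxylase, the serotonin-making enzyme, and was used here for the same contrast in other animals. The sex of the animals is not labelled.

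C. elegans renews its cuticle at each larval molt. The epidermis first secretes a short-lived precuticle, rich in lipocalin-related and zona pellucida domain proteins, and then layers of cuticle collagens, whose genes are switched on in a fixed order within each stage; furrow collagens, which shape the rings around the body, are known as early members of that order. During L4 the seam cells fuse, the vulva takes shape and germ cells of the hermaphrodite form sperm before the switch to oocytes.

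The early animals were collected between 203.3 and 293.5 min (median 249.9) and the late animals between 301.6 and 397.7 min (median 343.3). The number after the strain in the label titles splits the animals into 8 sets, whose meaning the labels do not give. Only sets 1, 3, 4, 7 and 8 hold animals of both windows, with set 4 carrying 48% of the information on the difference, as set by its animal numbers, and set 3 21.4%, and sets 1, 7 and 8 each having a single animal in 1 of the windows. With set as a covariate, the mean gap in minutes fell from 96.7 over all animals to 73.7 within sets. Levels are in RPM, a gene's share of its library's reads in listed genes scaled to a fixed total. The early libraries held 1043680 to 7886315 such reads and the late ones 1292650 to 6293574, so that a single read was worth between 0.127 and 0.958 RPM. Animals had 10208 to 17452 genes at 1 RPM or more early and 11086 to 17631 late, and mitochondrially encoded transcripts took 4.85% ± 2.62 (SD, n = 32) and 3.67% ± 1.48 (SD, n = 35) of the reads. The summed markers of the main tissues were present in both windows, but their levels moved unevenly. The median summed level of 3 body wall muscle markers was 7154 RPM early and 6931 RPM late. In the same order, 4 intestinal markers had 1627 and 984 RPM and 3 germline markers 449 and 551 RPM. The male-only markers had 9.23 and 11.1 RPM. Largest was the fall of 4 hypodermis and seam markers, from 468 to 20.7 RPM. Pharynx markers had 1425 and 709 RPM and neuron markers 83.5 and 57.8 RPM. Sperm markers had 46.2 and 312 RPM and oocyte markers 210 and 216 RPM. Since each library is a whole animal, fewer cells of a type and less RNA per cell cannot be told apart.

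Furrow collagen and precuticle genes fell between the windows, and many other cuticle collagens, hedgehog-related genes and, less stably, sperm genes rose. Of 13205 genes tested, 854 were higher in the late window (6.47%) and 1015 were lower (7.69%), by limma on log2(RPM + 1) with set as a covariate and a Benjamini-Hochberg adjusted p below 0.05. Of the higher genes 676 (5.12% of those tested) rose by at least 1 on the log2 scale, against 339 lower genes (2.57%) that fell by as much. The shares of 6.47% and 7.69% over all tested genes are the comparison for each list count below. The median change over all tested genes was -0.04. After TMM rescaling, which moved that median by 0.07, the split was 1072 higher and 740 lower. Single animals weighed on these totals, some of them the only one of their set in a window. Without the early animal of set 7, at 250.4 min, 568 genes were higher and 626 lower. Without the late animal of set 1, at 339.3 min, 558 were higher. The only early animal of set 8 moved the counts less, to 837 higher and 807 lower. Of the early animals of set 4, leaving out the one at 293.1 min gave 1169 higher. Leaving out the one at 281.1 min gave 623 higher and 1306 lower. Leaving out whole sets moved the higher count by over 1.5 times for set 1 (555) and set 4 (555), and the lower count for set 7 (598).

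The 6 furrow collagens all fell, with log2 changes of -4.53 to -6.36. Changes are given here on the log2(RPM + 1) scale, alone in brackets after a gene's name, and levels as the lowest, median and highest animal of each window. dpy-10 (WBGene00001072, chromosome II, 6710149 to 6712227 of WBcel235, beside the furrow collagen gene dpy-2) had 5.50, 406 and 847 RPM in the early window and 0, 1.10 and 101 RPM in the late window. Of the late animals 8 were listed at 0 and all but the one at 320.3 min had at most 16 RPM, and the 6 early animals below the highest late one were all collected after 270 min. Its change was -6.36 ± 0.54 (SE, limma adjusted p = 5.26e-14), and it was negative in each of the 5 sets that allow the difference, at -8.95, -6.05, -5.37, -7.79 and -7.82 in sets 1, 3, 4, 7 and 8. dpy-2 had 20.6, 566 and 1208 RPM in the early window and 0, 1.60 and 265 RPM in the late window, and the ranges shared the span from 20.6 to 265 RPM. It changed by -6.33 ± 0.52 (SE, limma adjusted p = 1.43e-14). The other furrow genes changed in the same direction, dpy-8 from a median of 1285 to 12.7 RPM, dpy-9 from 561 to 3.63 RPM, dpy-3 from 336 to 6.24 RPM and dpy-7 from 376 to 7.87 RPM. Together the mean levels of the 6 genes summed to 3471 RPM early and 95.2 RPM late, and all 6 were called without each single set and without each single animal.

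**Figure D1:**
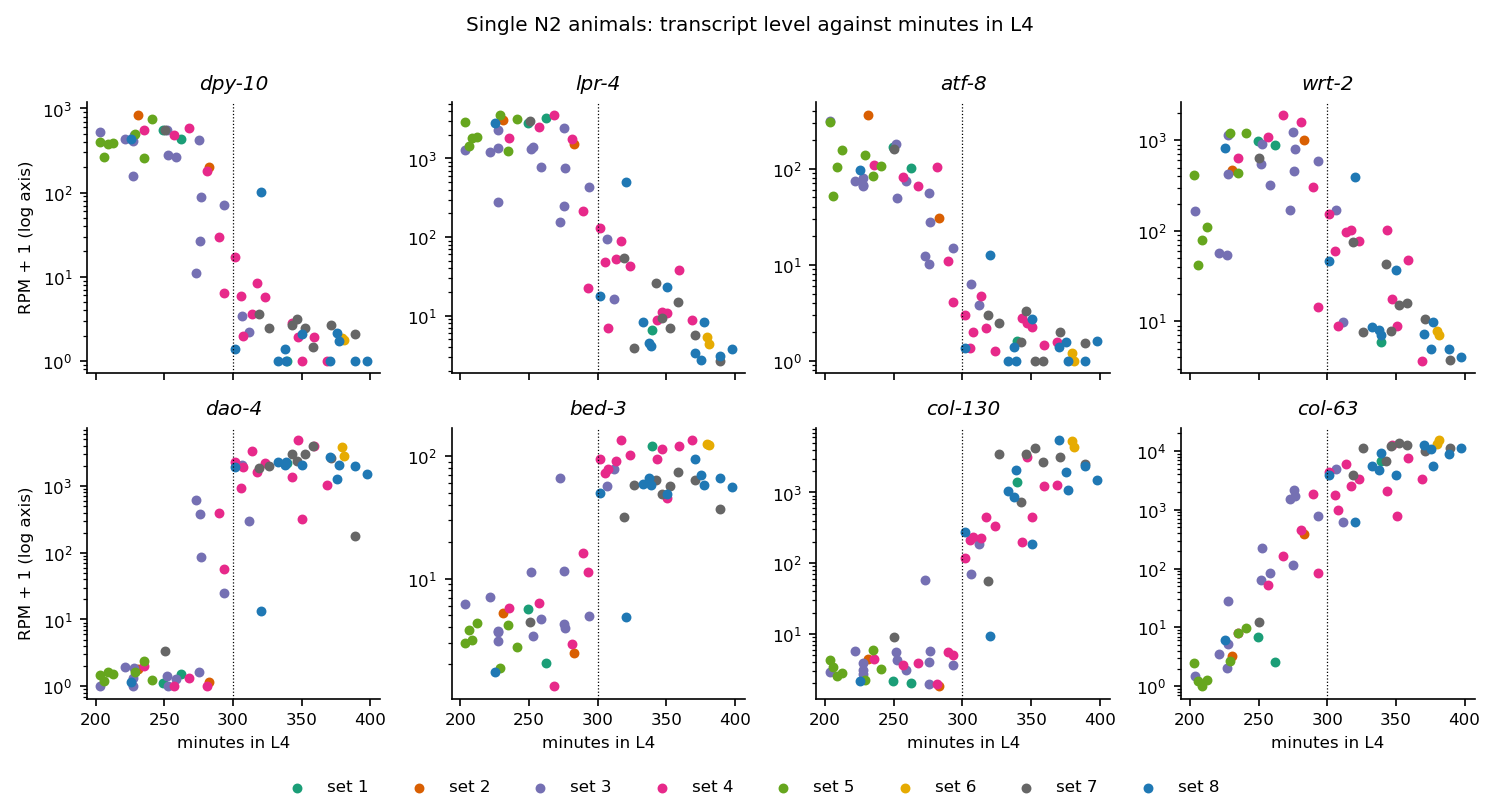
RPM + 1 on a log axis against minutes in L4 for 8 genes, with 1 point per N2 animal coloured by title set and a dotted line at 300 min. dpy-10, lpr-4 and atf-8 are high before 270 min and low after 325 min, wrt-2 is highest between 225 and 290 min, dao-4 and bed-3 are low in most animals before 275 min and high in most from 300 min on, with the animals at 272.8 and 320.3 min as exceptions, and col-130 and col-63 rise over a longer span.

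Of 15 genes of the precuticle, 12 fell and 1, lpr-7, rose, with a median of -2.88 over the 15. The lipocalin-related genes lpr-3, lpr-6, lpr-5 and lpr-4 lie side by side on chromosome X between positions 11057401 and 11066811, and all 4 fell. lpr-4 had 21.6, 1664 and 3623 RPM in the early window and 1.65, 7.83 and 496 RPM in the late window. The highest late animal was the one at 320.3 min and the next had 128 RPM, while the early animals below the highest late one were 5 collected after 270 min and 1 at 227.3 min. Its change was -5.83 ± 0.59 (SE, limma adjusted p = 7.36e-12), with -8.85, -4.37, -4.82, -8.28 and -8.32 in sets 1, 3, 4, 7 and 8. lpr-5 changed by -5.81 ± 0.56 (SE, limma adjusted p = 2.21e-12), lpr-3 by -5.39 and lpr-6 by -4.54. sym-1, which encodes a leucine-rich repeat protein of the apical matrix, had 68.7, 1232 and 2950.0 RPM in the early window and 1.10, 14 and 545 RPM in the late window, a change of -4.63 ± 0.55 (SE, limma adjusted p = 1.14e-09). The zona pellucida domain genes noah-1 (-4.01), noah-2 (-3.88), let-653 (-2.38) and fbn-1 (-1.49, a fibrillin-related gene) fell as well, and so did lpr-1, let-4 and egg-6. dex-1 and lpr-2 were not called, and lpr-7 moved the other way by 0.95 ± 0.32 (SE, limma adjusted p = 0.0333), a call that was lost without sets 1, 4, 7 or 8. The summed mean levels of the list were 11030 RPM early and 585 RPM late, and 11 or 12 members were lower without any 1 set or any 1 animal.

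The remaining collagens moved in both directions, and mostly up. Of 114 tested col genes outside the named shape classes, 45 rose and 7 fell, with a median of 1.01, and their summed mean level went from 18200 to 71290 RPM. col-130 (WBGene00000704, chromosome IV, 12427505 to 12428516, overlapping ugt-65 on the other strand) had 0.823, 2.64 and 56.5 RPM in the early window and 8.51, 1083 and 5538 RPM in the late window. No early animal passed 56.5 RPM, and the lowest late animal, at 320.3 min, had 8.51 RPM. The change was 6.80 ± 0.55 (SE, limma adjusted p = 8.81e-15). col-77 had 2.54, 33.4 and 1217 RPM in the early window and 656, 5119.7 and 15434 RPM in the late window, a change of 6.08 ± 0.58 (SE, limma adjusted p = 1.68e-12). col-63 had 0, 10.1 and 2131 RPM in the early window and 617, 6015 and 15444 RPM in the late window, and 7 of the 32 early animals were already on the late side of the midpoint between the window means. It changed by 6.22 ± 0.81 (SE, limma adjusted p = 1.66e-08). col-107 (5.90), col-157 (4.94) and col-173 (3.08) also rose. Among the 7 that fell, col-149 was the largest, at 7.24, 521 and 8434 RPM in the early window and 0.728, 2.82 and 89 RPM in the late window and -5.23 ± 0.64 (SE, limma adjusted p = 3.03e-09), followed by col-98 (-4.04) and col-128 (-3.32). Between 4 and 7 col genes were lower and between 33 and 48 higher without 1 set.

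**Figure D2:**
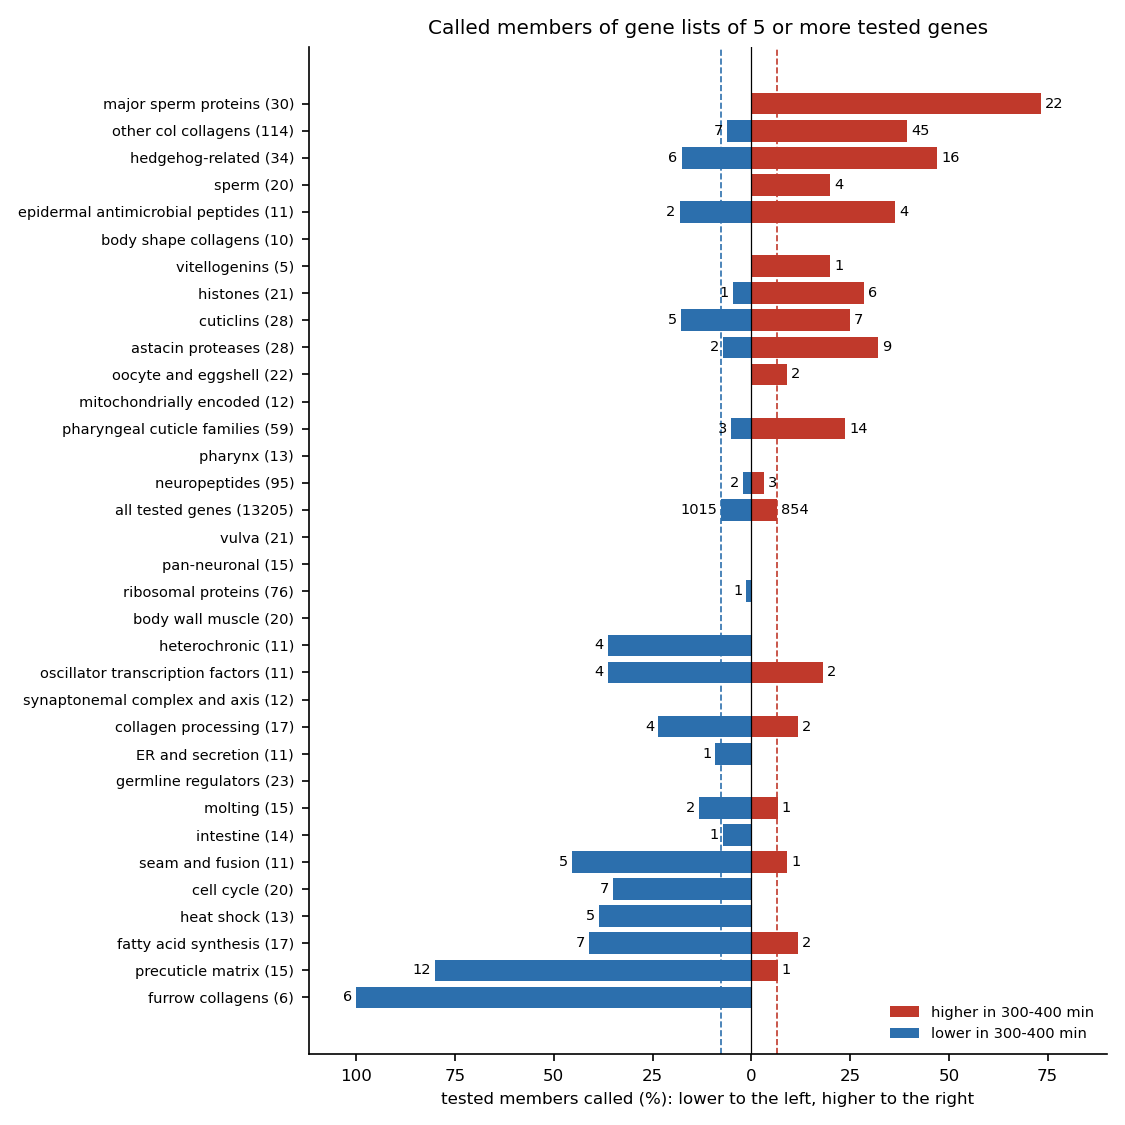
Percent of tested members called lower (to the left) and higher (to the right) in each gene list with at least 5 tested genes, with the tested number in brackets and the share over all tested genes, 7.69% lower and 6.47% higher, for comparison. Furrow collagens and precuticle genes lie on the lower side, and major sperm proteins, hedgehog-related genes and col genes on the higher side.

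The strut collagens bli-1, bli-2 and bli-6, which build the columns between the layers of the adult cuticle, were not called between the windows by limma, and neither were the 10 tested collagens in which mutations give short, roller or long bodies. Of the 3 and the 10, 1 and 4 had an unadjusted p below 0.05, 0 and 0 were called by edgeR and 0 and 1 by DESeq2. bli-1 changed by -0.79 ± 0.73 (SE, limma adjusted p = 0.519). Of the shape collagens, dpy-5 was nearest to the threshold, with 1.48 ± 0.53 (SE, limma adjusted p = 0.0503), and the list had a median of 0.53. Among 17 genes that modify collagens, the peroxidase gene mlt-7 (2.09) and the prolyl 4-hydroxylase gene phy-3 (1.04) rose. The prolyl 4-hydroxylase gene phy-2 (-0.62), the protein disulfide isomerase gene pdi-1 (-0.67), fkb-5 (-1.32), of the FK506-binding family, and the procollagen protease gene dpy-31 (-0.98) fell, and these 4 became 8 without the early animal of set 4 at 293.1 min. pdi-1 had 392, 838 and 1222 RPM in the early window and 248, 447 and 656 RPM in the late window, so that the windows shared the span from 392 to 656 RPM, and a change of -0.67 ± 0.13 (SE, limma adjusted p = 0.000138).

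Hedgehog-related genes, which in nematodes encode secreted proteins of the epidermis and other tissues, divided: 16 of 34 tested members rose and 6 fell, with a median of 1.00. The ground-like gene grl-16 had 0, 6.97 and 139.9 RPM in the early window and 58.0, 1507 and 7315 RPM in the late window. Early and late animals met only between 58 and 140 RPM. It changed by 6.15 ± 0.60 (SE, limma adjusted p = 2.21e-12). grl-5 had 0.519, 14.7 and 1699 RPM in the early window and 46.8, 3184 and 7589.6 RPM in the late window, a change of 5.92 ± 0.77 (SE, limma adjusted p = 1.56e-08). The warthog gene wrt-4 (2.90) and the groundhog gene grd-14 (2.48) also rose. In the other direction, wrt-10 had 6.53, 978 and 3661 RPM in the early window and 2.75, 8.12 and 80.5 RPM in the late window, a change of -5.19 ± 0.54 (SE, limma adjusted p = 1.54e-11), with wrt-2 (-4.29), grd-3 (-3.52), wrt-1 (-3.01), grd-10 (-1.95) and grd-13 (-1.32) also lower. Without 1 animal, 15 or 16 members were higher and 6 lower, and without 1 set 11 to 16 were higher and 5 or 6 lower.

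Cuticlins, proteins of the cuticle, likewise went both ways, with 7 of 28 higher and 5 lower, and the 5 became 8 without the early animal of set 4 at 281.1 min. cut-2 had 1.73, 11.5 and 442 RPM in the early window and 229, 1447 and 4951 RPM in the late window, so that the windows shared the span from 229 to 442 RPM, and changed by 5.20 ± 0.51 (SE, limma adjusted p = 2.94e-12). cutl-15 rose by 1.94 and cut-4 by 1.83, while cutl-10 fell from a median of 27.5 to 2.07 RPM (-2.28). Of 59 genes of the families that make the pharyngeal cuticle (abu, pqn and fipr genes), 14 rose and 3 fell. The 14 became 8 without set 4, and the 3 became 5 without the early animal of set 4 at 281.1 min. The summed pharynx markers myo-1, myo-2 and tnt-4 had medians of 1425 RPM early and 709 RPM late, and their part in these calls was not tested. abu-14 had 0, 7.45 and 2745 RPM in the early window and 42.5, 1225 and 26853 RPM in the late window, so that its highest early animal stood above the late median, and changed by 6.28 ± 0.70 (SE, limma adjusted p = 1.63e-10). abu-12 changed by 5.04, pqn-67 by 3.43 and pqn-26 by 2.98. Of 11 epidermal antimicrobial peptide genes, nlp-30 (1.94), nlp-33 (1.61), nlp-34 and cnc-10 rose and cnc-8 (-3.15) and nlp-27 (-2.65) fell. The 4 higher members became 2 without the early animal of set 7 at 250.4 min, or without either of the early animals of set 4 at 257.0 and 268.0 min. nlp-33 had 73.6, 635 and 2096 RPM in the early window and 637, 3531 and 7439 RPM in the late window, a change of 1.61 ± 0.31 (SE, limma adjusted p = 9.24e-05). Outside the antimicrobial group, nlp-24, a neuropeptide-like gene, fell (-0.95), and 3 of 95 tested neuropeptide genes rose and 2 fell, all but nlp-24 among the antimicrobial peptides above. The neuropeptide shares, 3.16% higher and 2.11% lower, were below the 6.47% and 7.69% of all tested genes.

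The largest rise among the named genes was that of dao-4 (WBGene00000930, chromosome X, 10075288 to 10076357), which had 0, 0.523 and 617 RPM in the early window and 12.4, 2057 and 4900.4 RPM in the late window. Of the early animals, 4 were on the late side of the midpoint, all after 270 min, and 1 late animal was on the early side. The change was 8.45 ± 0.77 (SE, limma adjusted p = 3.12e-13), and it was 10.70, 7.11, 8.13, 9.11 and 10.09 in sets 1, 3, 4, 7 and 8. ram-2 had 1.87, 14.3 and 524 RPM in the early window and 137, 2569 and 9570.0 RPM in the late window and changed by 6.22 ± 0.57 (SE, limma adjusted p = 3.03e-13). K02E11.10 (7.10), K01D12.9 (5.73), C04G6.2 (5.69), D2092.8 (5.54), R12E2.15 (5.53) and ZK180.5 (5.32) completed the 15 largest increases; these genes are listed under sequence names and no role is given for them here. Of the 30 genes of largest change, D2092.8 was the 1 with none of the 32 early animals on the late side of the midpoint, and its highest early level was 4.35 RPM against a late median of 92.1 RPM. Among the 15 largest decreases, Y54G2A.76 fell from a median of 277 to 2.71 RPM (-4.61).

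Of 15 genes needed for molting, mlt-10 rose and mlt-11 and peb-1 fell. These were 6.67% higher and 13.3% lower, against 6.47% and 7.69% of all tested genes. mlt-11, a Kunitz-type protease inhibitor gene, had 59.1, 1433 and 2977 RPM in the early window and 4.95, 48 and 664 RPM in the late window. Every early animal was above the late median, and the windows shared the span from 59.1 to 664 RPM. It changed by -3.62 ± 0.51 (SE, limma adjusted p = 1.45e-07). peb-1, which encodes a DNA-binding protein, changed by -2.18 ± 0.31 (SE, limma adjusted p = 1.70e-07). mlt-10 had 11.7, 175 and 769 RPM in the early window and 78.1, 698 and 1844 RPM in the late window, a change of 1.67 ± 0.47 (SE, limma adjusted p = 0.00894). Of 28 astacin metalloprotease genes, 9 rose, led by nas-7 (2.62), nas-14 (2.2), nas-6 (1.92) and nas-15 (1.76), and nas-4 (-1.81) and nas-33 (-0.68) fell. The 9 became 4 without set 4, and the 2 lower members became 0 without set 7. nas-38 went from a median of 6.19 to 30.1 RPM, a change of 1.74 ± 0.31 (SE, limma adjusted p = 1.85e-05). nas-37, an astacin needed for shedding the old cuticle, was not called, with -1.25 ± 0.49 (SE, limma adjusted p = 0.0750).

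Among 11 transcription factors of the molting oscillator, bed-3 and nhr-25 rose and elt-3, grh-1, myrf-1 and lin-42 fell, and the 4 that fell became 2 without the early animal of set 7 at 250.4 min. bed-3, a BED zinc finger gene, had 0.318, 3.21 and 66.1 RPM in the early window and 3.87, 65.2 and 135 RPM in the late window. Early animals had at most 15.2 RPM except the one at 272.8 min, and the 1 late animal below 30 RPM was the one at 320.3 min. The change was 4.08 ± 0.31 (SE, limma adjusted p = 8.73e-16), at 5.14, 3.43, 4.13, 3.59 and 4.83 in sets 1, 3, 4, 7 and 8. nhr-25, a Ftz-F1-type nuclear receptor gene, had 0, 4.31 and 40.1 RPM in the early window and 1.97, 10.2 and 20.3 RPM in the late window and changed by 1.52 ± 0.33 (SE, limma adjusted p = 0.000512). The GATA factor gene elt-3 changed by -1.11 ± 0.25 (SE, limma adjusted p = 0.000816) and the Grainyhead gene grh-1 by -1.02 ± 0.29 (SE, limma adjusted p = 0.00984). atf-8, a bZIP factor gene that is not on the list, had 3.09, 79.7 and 363 RPM in the early window and 0, 0.592 and 11.6 RPM in the late window, so that early and late animals shared only the range from 3.09 to 11.6 RPM, with a change of -4.61 ± 0.41 (SE, limma adjusted p = 1.54e-13).

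Of 11 heterochronic genes, 4 fell and none rose: lin-29, the zinc finger gene of the larval-to-adult switch (-0.93), its cofactor gene mab-10 (-0.96), the RNA-binding protein gene sup-26 (-0.78) and the period homologue lin-42 (-0.53). lin-29 had 37.5, 59.7 and 175 RPM in the early window and 5.50, 17.8 and 89.4 RPM in the late window, and its change was -0.93 ± 0.21 (SE, limma adjusted p = 0.000723). Most late animals lay below the lowest early animal, and the highest ones were within the early range. The lin-42 call was lost without set 3 and under TMM rescaling. Of 11 genes of seam cell identity and cell fusion, 5 fell and 1, nhr-25, rose. wrt-2, a warthog gene of the seam, had 13.4, 570.3 and 1928 RPM in the early window and 2.66, 8.86 and 394 RPM in the late window and changed by -4.29 ± 0.62 (SE, limma adjusted p = 2.24e-07). The fusogen genes eff-1 (-0.71) and aff-1 (-1.01), grd-10 and nhr-74 (-1.41) were the others that fell. The summed level of 4 hypodermis and seam markers (elt-3, nhr-73, grd-10 and dpy-7) went from a median of 468 RPM to 20.7 RPM. nhr-73 was at 0 in 1 early and 12 late animals, and grd-10 in 1 early and 4 late animals. Most of the early sum was the furrow collagen gene dpy-7, with a median of 376 RPM early and 7.87 RPM late. elt-3 and grd-10 are also among the called genes above, so the sum is no separate measure of the tissue. The part of a shift in tissue in these results was not tested. Of 20 cell cycle genes, 7 fell and none rose: the cyclin D gene cyd-1, 5 mcm genes of the replicative helicase and the PCNA gene pcn-1. cyd-1 had 4.53, 22.4 and 72.3 RPM in the early window and 0.614, 5.53 and 23.2 RPM in the late window and changed by -1.60 ± 0.30 (SE, limma adjusted p = 6.88e-05). mcm-6 changed by -0.97 and pcn-1 by -1.03, and the 7 calls became 2 without set 4, 3 without set 7 and 3 without set 8, and 4 to 8 without 1 animal, with 4 without the early animal of set 7.

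Sperm genes were higher in the late window, with wide spread between animals. Of 30 tested major sperm protein genes, which encode the cytoskeletal protein of nematode sperm in near-identical copies that reads may not tell apart, 22 rose and none fell, with a median of 2.41. msp-53 had 0, 1.18 and 172 RPM in the early window and 0, 39.8 and 756 RPM in the late window. Both windows held animals without a read of it, and every early animal lay within the late range. Its change was 2.83 ± 0.86 (SE, limma adjusted p = 0.0182). This count moved widely with the animals used: it was 0 without set 3, 5 without set 1, 7 without set 7 and 11 without set 4, and it was 4 to 12 without any of 13 single animals. With 1 block for each set and CAM number of the titles, where 15 early and 13 late animals share a block with the other window, it was 0. The calls were lost without set 3 for all 4 named members, msp-32, msp-76, msp-65 and msp-53. Of 20 other sperm genes, 4 rose, among them spe-11, a sperm-supplied factor of the embryo, at 1.60 ± 0.48 (SE, limma adjusted p = 0.0161), and smz-2 (1.28); of the 4, 1 was called without set 1, set 3 or set 7 and 2 without set 4. The summed sperm markers msp-3, gsp-3 and spe-11 had medians of 46.2 RPM early and 312 RPM late. msp-3 and spe-11 belong to the groups counted above, so this sum is no separate measure.

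Eggshell genes perm-2 and perm-4 rose, 2 of 22 oocyte and eggshell genes (9.09%, against 6.47% of all tested genes). perm-4 had 0, 4.38 and 31.7 RPM in the early window and 1.00, 34.3 and 190.3 RPM in the late window, a change of 2.19 ± 0.52 (SE, limma adjusted p = 0.00150), and perm-2 changed by 1.89 ± 0.38 (SE, limma adjusted p = 0.000140). Of 5 tested yolk protein genes 1, vit-3, was called, at 0.90 ± 0.29 (SE, limma adjusted p = 0.0304), a call lost without set 1, 3, 4 or 8. Its mean was 2.50 RPM early and 5.54 RPM late, and the summed mean level of the yolk protein genes went from 47.6 to 54.7 RPM. Of 21 tested histone genes, several of them near-identical copies, 6 rose and 1, his-41, fell, a call lost under TMM rescaling. The linker histone gene his-24 had 12.9, 31.1 and 72.4 RPM in the early window and 14.3, 61.6 and 184 RPM in the late window and changed by 1.38 ± 0.27 (SE, limma adjusted p = 0.000130).

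Of 17 fatty acid synthesis genes, 7 fell and 2, the elongase genes elo-3 and elo-4, rose. fasn-1, the fatty acid synthase gene, had 275, 1169.9 and 2302 RPM in the early window and 95.7, 252 and 776 RPM in the late window. Most early animals stood above the highest late animal, and the change was -1.58 ± 0.24 (SE, limma adjusted p = 6.07e-07). pod-2, the acetyl-CoA carboxylase gene, had 231, 596 and 864 RPM in the early window and 91.9, 180.0 and 380.1 RPM in the late window, a change of -1.31 ± 0.16 (SE, limma adjusted p = 6.24e-09). The desaturase genes fat-4 (-0.89), fat-2 (-0.89), fat-3 (-0.78) and fat-1 (-0.76) and the elongase gene elo-1 (-0.77) fell less. At least 7 members were lower without any 1 set or any 1 animal. Of 13 heat shock genes, 5 fell: the mitochondrial chaperone genes hsp-60 (-0.73) and hsp-6 (-0.67), the BiP gene hsp-3 (-0.73), hsp-110 and hsp-25. The 5 became 3 under TMM rescaling. The calreticulin gene crt-1 was the 1 of 11 ER and secretion genes that fell, from a median of 3662 to 1489 RPM, a change of -0.74 ± 0.21 (SE, limma adjusted p = 0.0103), and its call was lost under TMM rescaling and without set 7 or 8. Without 1 animal, 0 to 7 of the 11 were lower. The summed intestinal markers elt-2, ges-1, act-5 and ifb-2 also had a lower median late, and their part in the lower fat genes was not tested. elt-2, the gut GATA factor gene, had a median of 23 RPM early and 23.8 RPM late.

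Several lists gave no call in limma. Of 12 synaptonemal complex and axis genes, 12 mitochondrially encoded genes and 20 body wall muscle genes, 0 had an unadjusted p below 0.05 and 0 were called by edgeR or DESeq2 on recovered reads. Of 21 vulval genes 4 had an unadjusted p below 0.05, and edgeR called 2 and DESeq2 3. Of 13 pharyngeal genes 3 had an unadjusted p below 0.05, and edgeR and DESeq2 each called 3. Of 15 pan-neuronal genes the numbers were 3, 1 and 2, and of 23 germline regulators 3, 0 and 0. Of 76 ribosomal protein genes 1, rpl-25.1, was called, at -0.27 ± 0.09 (SE, limma adjusted p = 0.0415), and it was lost without set 1, 4, 5, 7 or 8 and under TMM rescaling. Of 14 intestinal genes 1, the ezrin-radixin-moesin gene erm-1, changed by -0.57, and its call was lost under TMM rescaling; without 1 animal, 1 to 6 of the 14 were lower.

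Slopes over the minutes within each window and medians in 25-min bins locate these differences in time. A slope per 100 min was fitted inside each window with set as a covariate: inside 200 to 300 min 261 genes rose (1.98%) and 511 fell (3.87%), and inside 300 to 400 min 183 rose (1.39%) and 253 fell (1.92%). Of the 854 genes higher in the late window, 168 also rose within the early window, 115 within the late window and 17 within both, and 588 had a called rise in neither. Of the 1015 lower genes, 242 also fell within the early window, 165 within the late window and 41 within both. dpy-10 had medians of 394, 486, 459, 78.8, 2.63, 0.902, 0.689 and 0.759 RPM in the 8 successive 25-min bins, which hold 6, 10, 8, 8, 11, 9, 8 and 7 animals, so that the fall lay between 250 and 325 min. lpr-4 had 1634, 2546, 1938, 596, 51.5, 7.20, 8.76 and 2.77 RPM in the same bins. dao-4 had 0.508, 0.488, 0.366, 39.7, 1902, 2262, 2656 and 1956 RPM, with nearly the whole rise between 275 and 325 min. col-63 rose earlier and for longer, through 0.368, 5.44, 72.8, 615, 3336, 6734, 8755 and 11131 RPM.

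Some genes turned within a window. wrt-2 had bin medians of 93.8, 728, 758, 694, 76.3, 6.95, 11.9 and 3.99 RPM and so rose before it fell. bli-1 had 120.4, 1013, 1471, 2049, 1527, 623, 171 and 55.4 RPM, highest at 275 to 300 min and low again at 375 to 400 min. Its slope was 3.20 ± 1.33 per 100 min (SE, limma adjusted p = 0.169) in the early window and -6.52 ± 1.18 per 100 min (SE, limma adjusted p = 9.29e-05) in the late window. Across the 3 strut collagens the median slope was 3.60 early, with 2 called rises, and -3.94 late, with 2 called falls. They did not share 1 course, since the bin medians of bli-6 rose in every bin. They went through 28.2, 1624, 2835, 3799, 4826, 7477, 7820 and 8709 RPM. The 10 shape collagens had a median slope of 2.74 early, with 5 called rises, and -0.30 late with none called. For the other col genes, 46 of 114 rose within the late window and 1 fell, against 19 and 24 within the early window. Of 34 hedgehog-related genes 13 rose and 5 fell within the early window, and 4 rose and 6 fell within the late window. Of the furrow collagens 4 of 6 fell within each window, and of the precuticle genes 5 of 15 fell within the early and 10 within the late window.

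No tested gene had windows without overlap. For the 30 genes of largest change, each animal was placed on the early or late side of the midpoint between the window means on log2(RPM + 1). The same values chose the genes, so this is a description. In 22 of 32 early animals no gene lay on the late side, and in 26 of 35 late animals all 30 did. The exceptions were mostly near 300 min. An early animal of set 3 at 272.8 min had 21 genes on the late side, with 617 RPM of dao-4 and 10.1 RPM of dpy-10. An early animal of set 4 at 293.1 min had 16, and it was low for both kinds of gene, with 5.50 RPM of dpy-10 and 55.6 RPM of dao-4. A late animal of set 8 at 320.3 min, the shallowest of its window at 1292650 reads, had 3, with 101 RPM of dpy-10 and 12.4 RPM of dao-4. Without that animal of set 8, the furrow, precuticle and hedgehog-related counts stayed within the ranges given above.

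**Figure D3:**
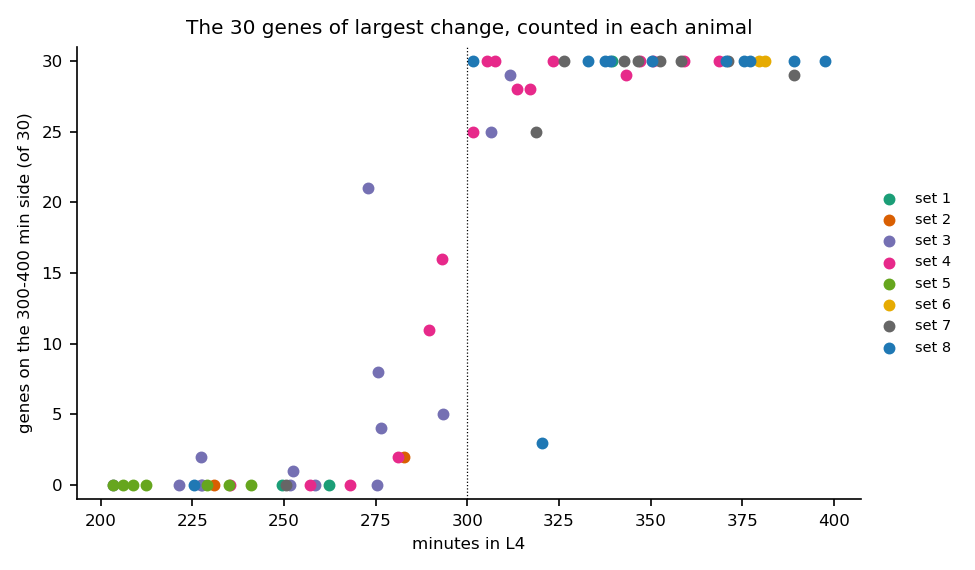
Number of the 30 genes of largest change that lie on the late side of their midpoint, against minutes in L4, with 1 point per N2 animal coloured by title set and a dotted line at 300 min. Animals before 270 min have 0 to 2 such genes and animals after 325 min have 29 or 30, with intermediate counts between.

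The 6 windows of 100 min from 0 to 600 min place these genes in the stage. Of the 854 higher genes, 324 (37.9%) had their highest N2 window mean at 300 to 400 min, 140 (16.4%) at 400 to 500 min and 344 (40.3%) at 500 to 600 min. Of the 1015 lower genes, 311 (30.6%) were highest at 200 to 300 min, 383 (37.7%) at 100 to 200 min and 301 (29.7%) at 0 to 100 min. Of all 13205 tested genes, 49.9% were highest at 0 to 100 min, 13.3% at 100 to 200 min, 12.3% at 200 to 300 min, 5.57% at 300 to 400 min, 2.64% at 400 to 500 min and 16.2% at 500 to 600 min. These shares use the animals of the comparison and are a description. dpy-10 had window means of 14.7, 153, 359.6, 4.66, 0.470 and 0.847 RPM, a single peak at 200 to 300 min. dao-4 had 1.06, 0.777, 48.8, 2118, 391 and 3.18 RPM, a single peak at 300 to 400 min. bed-3 had 3.36, 3.44, 5.98, 75.1, 21.4 and 1.15 RPM, highest in the same window. grd-3 was already past its peak, with 347, 373, 127, 2.21, 0.990 and 21.4 RPM. perm-4, with 2.21, 1.50, 7.98, 46.6, 206 and 575 RPM, and msp-53, with 0.491, 0.439, 16.7, 76.5, 309.9 and 665 RPM, had a higher mean in each later window from 200 min on.

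**Figure D4:**
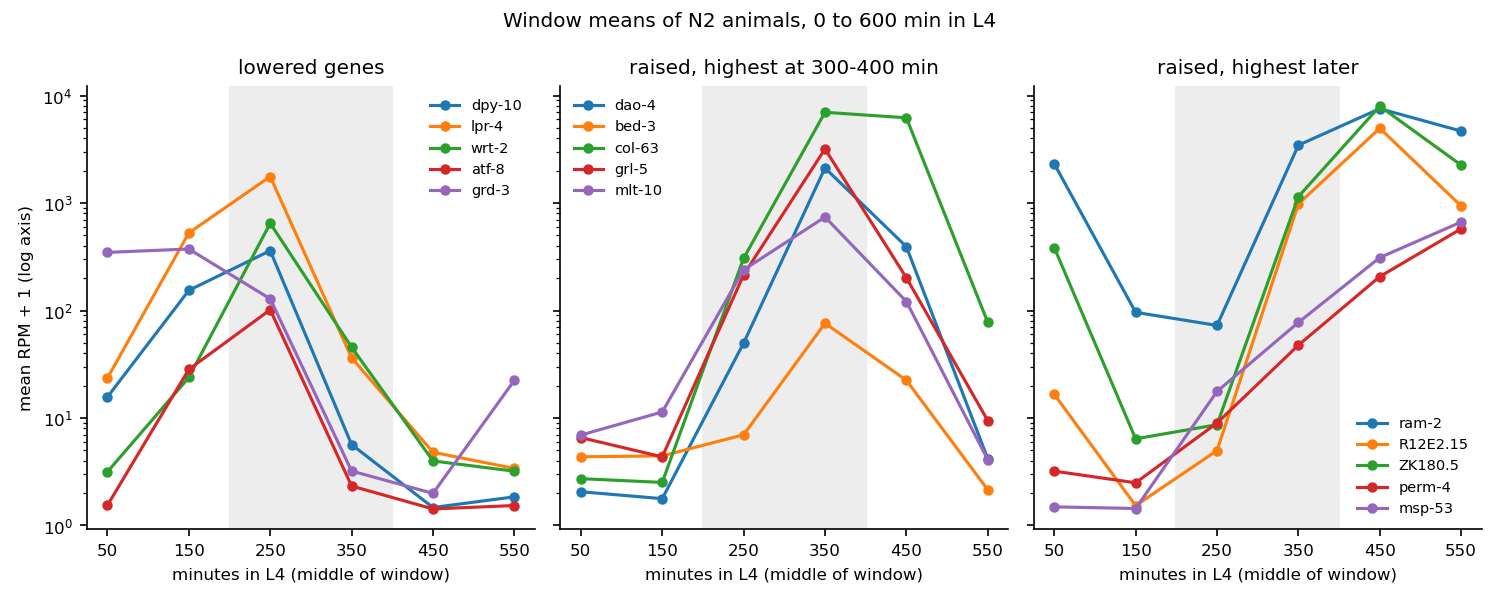
Mean RPM + 1 of N2 animals on a log axis in 6 windows of 100 min, for 5 lowered genes, 5 raised genes highest at 300 to 400 min and 5 raised genes highest later, with the compared windows shaded. dpy-10 and lpr-4 peak at 200 to 300 min, dao-4 and bed-3 at 300 to 400 min, and perm-4 and msp-53 are highest at 500 to 600 min.

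The tph-1(mg280) animals gave the same contrast without sharing an animal with N2, with 42 animals at 200 to 300 min and 28 at 300 to 400 min in 4 sets. There 1465 genes were higher (11.1%) and 6333 lower (48%), with a median change of -0.36, so that lower calls were common among all genes. Of the 854 genes higher in N2, 678 were also higher in tph-1 (79.4% of the N2 genes and 46.3% of the tph-1 genes), and of the 1015 lower genes 992 were also lower (97.7% and 15.7%). Across the 13205 genes the changes in the strains had Pearson's r = 0.891 and Spearman's rho = 0.539, a description over genes, which are not independent. In limma the difference between the strains' changes passed an adjusted p of 0.05 for 0 genes (0%), with a smallest adjusted p of 0.242. An unadjusted p below 0.05 was found for 2244 genes (16.99%), and 3 were called without a set term. The median of that difference, tph-1 minus N2, was -0.285, so the lack of calls does not show equal changes in the strains. The median SE of that difference was 0.31 on the log2 scale, so small differences in single genes were not detectable.

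The 97 named genes all had the same sign in tph-1. dpy-10 changed by -6.51 ± 0.44 (SE) there, lpr-4 by -6.72 ± 0.47, dao-4 by 8.47 ± 0.53, col-63 by 7.75 ± 0.64 and bed-3 by 3.56 ± 0.29. Of the 97, 6 had a strain difference at an unadjusted p below 0.05, all with adjusted p of 0.246 or more in limma. The largest gaps relative to their error were in nhr-25, at 1.52 in N2 and 0.08 ± 0.29 in tph-1, and in phy-3, at 1.04 and 0.08 ± 0.21. The tph-1 minus N2 difference was -1.45 (95% interval -2.35 to -0.54, limma adjusted p = 0.246) for nhr-25 and -0.96 (95% interval -1.64 to -0.28, limma adjusted p = 0.246) for phy-3. mlt-10 (1.67 and 2.91 ± 0.31), crt-1, nlp-27 and grd-10 were the others, each with a change of larger size and the same direction in tph-1. Of the shape collagens that were not called in N2, 9 of 10 were higher in tph-1.

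**Figure D5:**
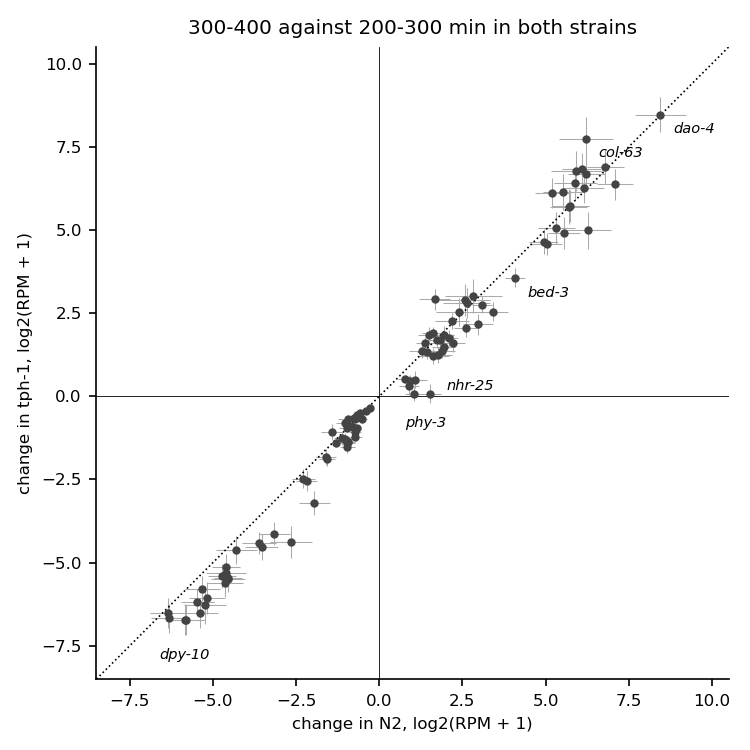
Change from 200 to 300 min to 300 to 400 min in tph-1 against the same change in N2, on the log2(RPM + 1) scale, for the 97 named genes, with SE bars and a dotted line of equal change. All points lie in the lower left or upper right, and nhr-25 and phy-3 lie nearest to 0 for tph-1 among the raised genes.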

How the data were processed

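Single-animal polyA libraries of N2 were made with SMART-seq2, per the labels' design text, and Nextera tagmentation, per the labels' protocols. The submitters' processing notes name STAR 2.7.9a. How it was run, the build, the annotation, the counting tool and the use of strand are not stated in the sources used here, so overlapping genes and near-identical copies are uncertain. The deposited values are RPM, a gene's share of the library's reads in listed genes scaled to a fixed total by the authors. In each of the 67 animals 100% of values came out as whole reads within 0.1 reads, and those reads served the alternative count tests. No libraries held identical values. RPM is not per length, so the sums over genes given above weigh longer transcripts more, and no test compared levels between genes. Coordinates come from the Ensembl 115 annotation of WBcel235, which matched 18721 of 19382 symbols.

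Tests were limma 3.58.1 with trend in R 4.3.3 on log2(RPM + 1), a scale that understates changes of low genes, over 13205 genes that reached 5 RPM in 10% or more of these animals, with title set as a covariate, Benjamini-Hochberg adjustment over all tested genes and a threshold of 0.05. The same code was tested on simulated data. Alternatives used edgeR 4.0.16 and DESeq2 1.42.0 on recovered reads, TMM rescaling, other filters, pseudocounts (0.1 and 5), covariates, sets and animals. Named genes were the 15 largest called increases and decreases with a mean of at least 10 RPM and 1 sign in sets 3 and 4, and up to 4 called members of each of 34 gene lists with the smallest adjusted p. Other genes are named to complete a count and were chosen after their values were seen. The members and lists were chosen with earlier results of these data known. Animals are separate samples, though those of 1 set may share a run or batch that the labels do not name. Depth bears on counting error and on the lowest level that a library can show. No molecular identifiers are named, so reads can include PCR copies.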

Additional observations from a re-analysis of the deposited data

How the results depend on the processing

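No paired analysis was possible, because each animal was cut and frozen for a single library and so stands in 1 window only. With 1 block for each title set and CAM number, chosen after seeing the data, 390 genes were higher and 608 lower. Of these 35 blocks 9 hold both windows, with 15 early and 13 late animals. Of the 97 named genes 78 stayed called under these blocks and the others kept their sign, and 0 of 30 major sperm protein genes were called. The counts depended most on the title set, which is partly confounded with the window. Without a set term 1618 genes were higher and 5326 lower, with set as a random effect 1474 and 3356, in set 4 alone 172 and 80, in set 3 alone 0 and 0, and in sets 3 and 4 alone 215 and 205. With the CAM number of the titles as a covariate 484 were higher, with a mean of at least 10 RPM 568, and with DESeq2 1537; a slope per 100 min over all 67 animals gave 2026 lower genes, and the number of genes at 1 RPM as a covariate, chosen after seeing the data, gave 1726. Without 1 set or 1 animal, the latter also chosen after seeing the data, higher genes numbered 555 to 1169 and lower genes 598 to 1306. Without a set term 433 genes rose within 200 to 300 min, 1616 fell within 300 to 400 min and 3 differed between strains. The cause of these shifts was not tested.

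Of the 97 named genes, 46 passed the threshold in set 4 alone, where fewer animals were tested, and 1 in set 3 alone changed sign: rpl-25.1, at 0.00754. TMM rescaling lost the calls of crt-1, erm-1, hsp-25, lin-42 and rpl-25.1, edgeR and DESeq2 those of erm-1, hsp-25, lin-42, nlp-27 and rpl-25.1, and the CAM covariate 12, among them mlt-10, phy-3, vit-3 and 3 msp genes; it left 1 of 30 major sperm protein genes called. Without 1 animal at a time, 89 of the 97 were called in every fit; among the others, rpl-25.1 was called in 56 of 67 fits, vit-3 in 63, smz-2 in 65, and crt-1, lin-42, spe-11 and spe-15 in 66. Levels below those of 1 read, 0.127 to 0.958 RPM by animal, are out of reach in a single library.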

Other observations

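The patched-related genes, which encode membrane proteins of the family of the hedgehog receptor, were looked at after the values were seen. Of 21 tested ptr genes 7 (33.3%) were higher in the late window and 2 (9.52%) lower by limma, against 6.47% and 7.69% of all tested genes. TMM rescaling gave 8 and 2. ptr-16 had a lowest, median and highest level of 0, 4.82 and 95 RPM early and 14.7, 105 and 187 RPM late, a change of 4.00 ± 0.40 (SE, limma adjusted p = 5.61e-12). ptr-6 changed by 3.57 ± 0.34 (limma adjusted p = 2.21e-12). ptr-10 moved the other way, from 18.2, 52.3 and 130 RPM to 1.13, 7.07 and 44.1 RPM, by -2.1 ± 0.29 (limma adjusted p = 9.08e-08), and ptr-15 by -1.08 ± 0.22 (limma adjusted p = 0.000174). Leaving out 1 animal gave 7 or 8 higher and 2 or 3 lower members.

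Subunit genes of the vacuolar proton pump, also chosen after seeing the values, were lower in 13 of 20 cases (65%), with a median of -0.43. Of all tested genes 7.69% were lower. But after TMM rescaling 1 of the 20 was called (median -0.35), edgeR called 3, and leaving out 1 animal gave 6 to 17. Small sperm-specific families followed the major sperm proteins: 5 of 9 tested nspd genes (55.6%) and 6 of 11 ssp genes (54.5%) were higher. Of all tested genes 6.47% were higher. The family medians were 2.04 and 1.29, and both counts ranged from 0 to 9 without 1 animal. By chromosome, the share of tested genes called higher ran from 4.36% on III to 8.44% on IV and the share called lower from 6.84% on IV to 8.94% on X.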
